A study of Mus musculus with 6 samples.

Results

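The set described here holds 44 genes of the cell cycle and of DNA replication, taken by gene name. Each gene was read from its brightest gene probe on 6 mouse arrays, which together measured 34796 genes. Of the 44 genes, 43 had a probe well above background on all 6 arrays. The exception was Ccne2, the gene of cyclin E2, whose probe was well above background on none of them and which enters no count below.

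Cells enter division through D-type cyclins with CDK4, which release E2F transcription factors from the RB protein, and cyclin E with CDK2 carries this step on. Origins of replication are then licensed by CDC6 and the MCM helicase, forks run with PCNA as the sliding clamp, and ribonucleotide reductase, thymidylate synthase and thymidine kinase supply nucleotides. Mitosis follows with cyclins A and B on CDK1, the Polo and Aurora kinases, the spindle checkpoint and the anaphase-promoting complex, while p21, p27 and p18 hold the cyclin-dependent kinases back. Elicited peritoneal macrophages divide little in culture and mature neutrophils no longer divide, whereas their precursors in the marrow do.

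Mice were C57BL/6 and by label either TIARP+/+ (WT) or deficient for TIARP (KO), the product of Steap4, a metalloreductase of the plasma membrane and endosomes. Peritoneal macrophages were collected 3 days after thioglycollate and measured from each genotype with TNFα for 24 hours and on an array with no TNF label, and Ly6G+ neutrophils were taken from spleen on magnetic columns. Each of these 6 groups had 1 array, so no difference below has a replicate check and no p-value is given. The sources used here do not say whether an array pools the 3 mice numbered in its label, how long the macrophages without the TNF label were cultured, or how the deletion was made.

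Signal is given relative to the 75th percentile of all gene probes on the same array, and differences are log2 of the ratio of these relative signals. A gene is called higher or lower where this difference is at least 1 in size, which is 2-fold, with its probe well above background on the brighter array. The 75th percentile itself lay between 224 and 489.8 intensity units, lowest on the neutrophil arrays, and between 56.6% and 62.2% of probes were well above background. The KO macrophage array with TNF had the 56.6%. Its 75th percentile, 337.7, was the lowest of the macrophage arrays. Within an array, log2 signals of repeated spots of 1 probe scattered with an SD of 0.067 (median over probes). The KO-minus-WT differences of 8 spike-in probes had SDs of 0.265 in untreated macrophages, 0.176 in those given TNF and 0.425 in neutrophils. Both are technical scatter only. The spike-in SDs are taken about the probes' own mean difference, which after scaling was 0.52, 0.78 and 0.41 in these pairs. Counts beyond the spike-in SD below use it as a width around 0. They give no error for the distance of a member from 0. Steap4 had relative signals of 0.357 and 0.203 on the WT and KO arrays of macrophages without TNF, 0.114 and 0.0379 after TNF, and 0.211 and 0.161 in neutrophils, and it passed the 2-fold rule only with TNF. On the KO array with TNF its probe was not well above background. It was well above background on the KO arrays of untreated macrophages and of neutrophils. The sources used here do not give where the deletion lies relative to its probe. The macrophage arrays carried all 11 macrophage markers on the array well above background, and the neutrophil arrays carried all 9 markers of mature neutrophils, together with all 8 B-cell markers and all 11 macrophage markers. Each macrophage array also carried all 9 mature neutrophil markers and 7 of the 8 B-cell markers well above background. All 8 mesothelial and fibroblast markers were so on both WT macrophage arrays. Being well above background therefore does not tell these cell types apart.

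Promoter windows were read because many members share regulation in the cell cycle. The windows run from 250 bases before to 50 bases after the start of each gene in RefSeq (GRCm38.p6), and 36 of the 44 members had an entry. Ccna2, Aurkb, Foxm1, Kif20a, Ccnd1, Ccnd2, Ccne2 and Mcm4 had none. Both strands were searched for TTTGAA, the CHR element that the DREAM and MuvB complexes are known to bind in genes of late cell cycle, for CCAAT, the box bound by NF-Y, and for cores of E2F sites. The cores searched were TTCCCGC on either strand, TTGGCGC on either strand, TTCGCGC on either strand and TTGCCGC on either strand. A CCAAT box and an E2F core that begins with TTGG can share letters on opposite strands. E2F cores can overlap each other in the same way, as in TTGGCGCGAA, and so can CCAAT boxes, as in CCAATTGG. Each match was counted, so counts can exceed the number of separate stretches in capitals. Of the 7 genes that were lower on the KO array of macrophages with TNF, 6 have a window. They are shown here with the window of Mcm6, which has the most E2F cores among those printed, for contrast. Capitals mark these letters on either strand, and each window is written along its gene's strand, 5′ to 3′.

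Top2a (chr11:99024140-99024439, minus strand): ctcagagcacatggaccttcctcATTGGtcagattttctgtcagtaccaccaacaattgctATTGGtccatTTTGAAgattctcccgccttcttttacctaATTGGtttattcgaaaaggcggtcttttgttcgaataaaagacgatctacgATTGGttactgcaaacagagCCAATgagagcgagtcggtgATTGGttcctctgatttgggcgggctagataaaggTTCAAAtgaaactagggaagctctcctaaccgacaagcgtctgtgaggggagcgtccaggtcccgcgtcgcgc
Plk1 (chr7:122159185-122159484, plus strand): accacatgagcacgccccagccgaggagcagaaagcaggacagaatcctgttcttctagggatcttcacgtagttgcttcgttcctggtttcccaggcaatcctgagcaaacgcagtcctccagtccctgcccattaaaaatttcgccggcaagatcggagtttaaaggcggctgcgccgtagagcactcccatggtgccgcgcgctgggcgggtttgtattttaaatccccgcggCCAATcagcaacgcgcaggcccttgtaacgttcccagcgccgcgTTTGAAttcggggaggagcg
Bub1b (chr2:118597961-118598260, plus strand): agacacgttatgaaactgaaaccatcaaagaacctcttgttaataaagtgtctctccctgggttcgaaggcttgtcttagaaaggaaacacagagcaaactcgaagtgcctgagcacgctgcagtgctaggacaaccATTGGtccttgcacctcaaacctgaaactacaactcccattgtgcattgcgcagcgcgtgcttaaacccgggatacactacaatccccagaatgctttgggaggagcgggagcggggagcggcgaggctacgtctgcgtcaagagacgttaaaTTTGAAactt
Ube2c (chr2:164769679-164769978, plus strand): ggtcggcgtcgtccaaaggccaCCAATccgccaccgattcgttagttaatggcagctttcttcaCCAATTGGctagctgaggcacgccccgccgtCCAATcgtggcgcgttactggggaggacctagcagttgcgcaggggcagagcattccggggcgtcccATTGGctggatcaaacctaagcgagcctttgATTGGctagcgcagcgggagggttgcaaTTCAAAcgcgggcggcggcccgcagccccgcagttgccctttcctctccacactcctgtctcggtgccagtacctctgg
Kif11 (chr19:37376132-37376431, plus strand): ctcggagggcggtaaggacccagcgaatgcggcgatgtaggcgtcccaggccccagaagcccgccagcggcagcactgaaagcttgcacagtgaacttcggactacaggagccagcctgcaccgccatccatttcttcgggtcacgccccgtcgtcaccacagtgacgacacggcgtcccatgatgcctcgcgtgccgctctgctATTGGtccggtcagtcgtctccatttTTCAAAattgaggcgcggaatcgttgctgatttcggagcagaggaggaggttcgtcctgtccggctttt
Cdc6 (chr11:98907901-98908200, plus strand): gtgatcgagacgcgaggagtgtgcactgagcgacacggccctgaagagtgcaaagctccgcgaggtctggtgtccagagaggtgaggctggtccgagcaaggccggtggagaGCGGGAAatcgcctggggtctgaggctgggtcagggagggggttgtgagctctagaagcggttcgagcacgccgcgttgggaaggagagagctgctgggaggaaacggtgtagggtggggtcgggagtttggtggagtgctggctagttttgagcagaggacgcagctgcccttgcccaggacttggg
Mcm6 (chr1:128359656-128359955, minus strand): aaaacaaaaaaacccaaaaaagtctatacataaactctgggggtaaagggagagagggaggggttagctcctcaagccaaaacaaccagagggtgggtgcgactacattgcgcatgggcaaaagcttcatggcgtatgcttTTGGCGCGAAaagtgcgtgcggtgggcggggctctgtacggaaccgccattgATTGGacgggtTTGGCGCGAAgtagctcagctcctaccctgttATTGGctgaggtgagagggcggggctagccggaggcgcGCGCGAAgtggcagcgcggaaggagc

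Top2a, Plk1, Bub1b, Ube2c and Kif11 each hold TTTGAA together with CCAAT, and Top2a and Ube2c hold 6 CCAAT boxes each. Cdc6 holds 1 E2F core and neither of the other motifs, and Mcm6 holds 5 E2F cores and 2 CCAAT boxes. Over the 36 members with a window, 13 (36.1%) hold TTTGAA, against 20.2% of 27025 genes with windows of the same length. CCAAT stands in 27 of them (75%, against 41.1% of all genes), an E2F core in 12 (33.3%, against 10.9%), and TTTGAA with CCAAT in 13 (36.1%, against 8.97%). TTTGAA was found in both proliferation marks and in 4 of the 5 mitotic kinases and cyclins with a window. It was found in 3 of 5 checkpoint genes, 2 of 4 kinetochore and spindle genes and 2 of 8 origin and fork genes. It stood in 0 of 5 G1 genes, 0 of 4 nucleotide genes and 0 of 3 CDK inhibitors. A match is a description of the letters in the window and not a site in use.

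Most genes of the set, and nearly all those of mitosis, had less signal on the KO array than on the WT array of macrophages. In macrophages with TNF, 7 of the 43 measured members were lower on the KO array by the 2-fold rule, where 2.66% of all 23927 genes tested were lower. They were Bub1b, Top2a, Ube2c, Cdc6, Kif20a, Kif11 and Plk1, and 6 of these 7 act in mitosis. No member was higher, against 7.38% of all genes, and 39 members had a difference below 0, against 43.8% of all genes. The median difference of the members was -0.57, a ratio of 1.49 between WT and KO, while that of all genes was 0.05. Members just short of the rule were Cdk1 at -0.95, Cdc20 at -0.92 and Cenpe at -0.89, and the member just past it was Plk1 at -1.09. By more than the spike-in SD, 34 members were lower and 3 were higher, against 26.0% and 36.7% of all genes.

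In macrophages without TNF, 0 of the 43 members passed the 2-fold rule, where 1.56% of 24672 genes were lower and 4.08% were higher. Even so 35 members had a difference below 0, against 39.3% of all genes, and the median was -0.33 against 0.07 for all genes. Differences ran from -0.67 for Cenpe to 0.52 for Cdkn1a. By more than the spike-in SD, 27 members were lower and 3 higher, against 14.9% and 23.2% of all genes.

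In splenic neutrophils, 1 of the 43 members, Bub1b, was lower on the KO array and 0 were higher, where 4.74% of 23987 genes were lower and 5.02% were higher. With 36 members below 0 against 51.3% of all genes, the median was -0.26 against -0.01. The spike-in SD was larger here, and 13 members were lower and 4 higher by more than it, against 15.5% and 17.8% of all genes. Over the 3 pairs of arrays, 31 of the 43 members were below their WT array in every pair, against 16.6% of 21832 genes measured in all pairs, and 3 were above it in every pair, against 25.9%. The pairs may share mice and cannot be taken as replicates.

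**Figure D1:**
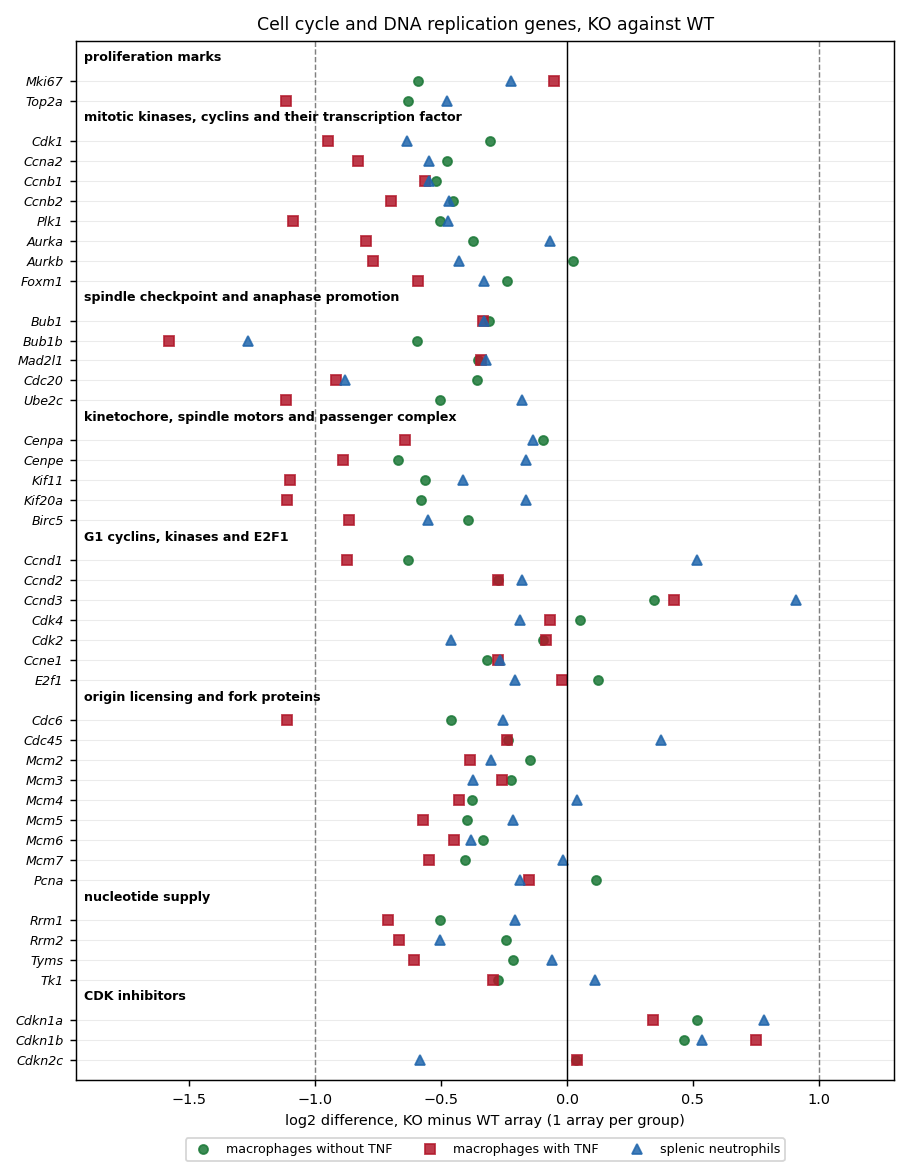
Log2 difference, KO minus WT array, of each of the 43 measured members, ordered by role, in macrophages without TNF (circles), macrophages with TNF (squares) and splenic neutrophils (triangles). Each point is 1 pair of arrays and dashed lines mark the 2-fold rule. The squares of 7 genes lie beyond the left line, while Ccnd3, Cdkn1a and Cdkn1b lie to the right of 0 in all 3 pairs, which scaling to the spike-in probes turns in macrophages.

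**Figure D2:**
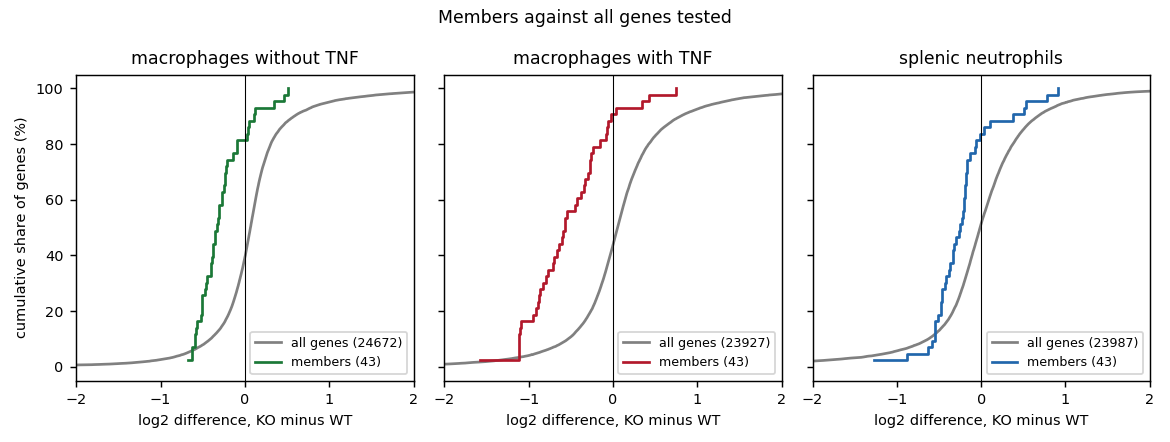
Cumulative share of genes (%) against the log2 difference, KO minus WT, for the 43 members (coloured steps) and for all genes tested (grey line), in 3 panels by condition. The member line lies left of the grey line over most of its range, with medians of -0.33, -0.57 and -0.26 against 0.07, 0.05 and -0.01.

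Proliferation marks differed from each other. Top2a, the topoisomerase that untangles chromosomes, had signals of 1.51 and 0.976 on the WT and KO arrays without TNF. With TNF they were 1.40 and 0.647, and in neutrophils 0.792 and 0.569. Each KO array lay below its WT array, and only the pair with TNF passed the rule, at -1.12 (probe on chromosome 11 from 98855522 to 98855581, mm9). Mki67, whose product coats mitotic chromosomes, had signals of 6.70 and 4.44 without TNF, 9.19 and 8.86 after TNF, and 4.37 and 3.74 in neutrophils. So Mki67 was apart on the WT and KO arrays without TNF, at -0.59, and nearly level with TNF, at -0.05. The other probe of Mki67 gave -0.59 and -0.02, and no other mitotic member came so close to 0 in macrophages with TNF.

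Mitotic kinases, their cyclins and FOXM1 had a median of -0.41 in macrophages without TNF, -0.79 after TNF and -0.47 in neutrophils. Plk1, the Polo kinase of centrosome and spindle, had signals of 8.75 and 6.17 on the WT and KO arrays without TNF, 8.85 and 4.16 after TNF, and 2.63 and 1.89 in neutrophils. Only its pair with TNF passed the rule, at -1.09 (chromosome 7, 129313220 to 129313279, mm9). The WT arrays without and with TNF stood level, and the KO array with TNF was the lowest of the 4 macrophage arrays. Cdk1, the kinase that drives entry into mitosis, had signals of 3.14 and 2.54, then 3.76 and 1.95 after TNF, and 0.763 and 0.491 in neutrophils. Its difference with TNF was -0.95, just short of the rule. The other probes of Cdk1, not well above background on every array, gave -0.13 and -0.425 after TNF, and 0.62 and -0.74 in neutrophils. Ccnb1, cyclin B1, had signals of 3.50 and 2.44, then 2.97 and 2.01, and 0.974 and 0.666 in neutrophils, and so differed by nearly the same in all 3 pairs, at -0.52, -0.56 and -0.55. Its other probes gave -1.20 and -0.81 after TNF, and 0.00 and -0.80 in neutrophils, so the size depends on the probe.

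The other genes of the group had differences with TNF of -0.83 for Ccna2 (cyclin A2), -0.70 for Ccnb2 (cyclin B2), -0.80 for Aurka (spindle pole kinase), -0.77 for Aurkb (kinase of the chromosomal passenger complex) and -0.59 for Foxm1 (transcription factor of late cell cycle genes). Aurkb was the exception without TNF, with 0.252 on the WT array and 0.256 on the KO array. With TNF its signals were 0.246 and 0.144.

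Among the KO-minus-WT differences of the members, the largest in size belonged to Bub1b, a gene of the spindle checkpoint. Bub1b, the BUBR1 kinase that restrains the anaphase-promoting complex, had signals of 0.922 and 0.610 on the WT and KO arrays without TNF, 2.15 and 0.718 after TNF, and 0.410 and 0.170 in neutrophils. The WT array with TNF stood above all others, and the KO arrays were 2.99-fold lower with TNF (-1.58) and lower in neutrophils at -1.27 (chromosome 2, 118466830 to 118466889, mm9). The neutrophil value was -0.71 with normexp background correction and then did not pass. Bub1, its paralogue at the kinetochore, had signals of 0.761 and 0.613, then 0.732 and 0.580, and 0.250 and 0.199 in neutrophils. Its differences stood between -0.31 and -0.34 in the 3 pairs, on a probe with 10 spots whose spot SD reached 0.171.

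Ube2c, the ubiquitin-conjugating enzyme of the anaphase-promoting complex, had signals of 2.58 and 1.82 without TNF, 2.79 and 1.29 after TNF, and 1.56 and 1.38 in neutrophils. It passed the rule with TNF at -1.12 (chromosome 2, 164597496 to 164597555, mm9) and was at -0.98 when the median over its probes was used. Cdc20, the activator of that complex, had signals of 8.95 and 6.99, then 9.36 and 4.96 after TNF, and 4.63 and 2.51 in neutrophils. Both its pair with TNF (-0.92) and its neutrophil pair (-0.88) came near the rule. Mad2l1, which signals unattached kinetochores, stood between -0.32 and -0.36 in the 3 pairs. Of its 2 other probes, 1 gave 0.05, 0.12 and 0.12, so the probes of Mad2l1 disagree in sign.

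Kinetochore and spindle genes had a median of -0.57 without TNF, -0.89 after TNF and -0.16 in neutrophils. Kif11, the kinesin that pushes spindle poles apart, had signals of 0.247 and 0.167 without TNF, 0.187 and 0.0870 after TNF, and 0.120 and 0.0900 in neutrophils. Its difference with TNF was -1.10 (chromosome 19, 37495755 to 37495814, mm9) and -0.37 with normexp background correction. Kif20a, a kinesin of cytokinesis, had signals of 3.46 and 2.31, then 3.26 and 1.51 after TNF, and 0.755 and 0.674 in neutrophils. It passed the rule with TNF at -1.11 (chromosome 18, 34792251 to 34792310, mm9). In both kinesins the KO array with TNF was the lowest of the 4 macrophage arrays.

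Birc5, survivin of the passenger complex, had signals of 18.0 and 13.7, then 18.3 and 10.03 after TNF, and 8.06 and 5.49 in neutrophils. It differed by -0.87 after TNF, and its other probes by -0.78 and -0.79. Cenpe, a kinetochore motor, differed by -0.67, -0.89 and -0.16 in the 3 pairs. Cenpa, the histone H3 variant of centromeres, had signals of 4.26 and 3.99, then 3.09 and 1.98 after TNF, and 2.73 and 2.48 in neutrophils. The genotypes stood close together without TNF (-0.10) and apart with TNF (-0.64). Counting all 20 mitotic members (proliferation marks, kinases and cyclins, checkpoint, kinetochore and spindle), 19 were below 0 without TNF, 20 after TNF and 20 in neutrophils, with medians of -0.47, -0.85 and -0.42.

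G1 regulators did not share one direction. The median of the 7 measured was -0.10, -0.08 and -0.19 in the 3 pairs, and 0 of 7 passed the rule. Ccnd1, cyclin D1, had signals of 4.88 and 3.15 without TNF, 4.32 and 2.36 after TNF, and 1.40 and 2.00 in neutrophils. So its KO array was below WT in macrophages (-0.63 and -0.87) and above it in neutrophils (0.51). Ccnd3, cyclin D3, had signals of 15.3 and 19.4, then 17.8 and 23.9 after TNF, and 28.2 and 52.99 in neutrophils. Each of its KO arrays lay above WT, by 0.35, 0.43 and 0.91, but scaling to the spike-in probes turns both macrophage values below 0. Ccnd2, cyclin D2, was at -0.27, -0.27 and -0.18.

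Cdk4, the partner of D cyclins, had signals of 51.3 and 53.1, then 54.4 and 52.0 after TNF, and 23.2 and 20.4 in neutrophils. On this probe its genotypes stood within 0.19 of each other in every pair, while its other probes gave 0.03 and -0.36 with TNF. E2f1, the transcription factor of S-phase genes, had signals of 3.30 and 3.59, then 5.44 and 5.36 after TNF, and 1.12 and 0.973 in neutrophils. Its KO-minus-WT differences were 0.12, -0.02 and -0.21. Cdk2, the partner of cyclins E and A, was at -0.10, -0.08 and -0.46, and Ccne1, cyclin E1, at -0.32, -0.27 and -0.27.

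Origin and fork genes had a median of -0.43 with TNF, and 1 of the 9, Cdc6, passed the rule. Cdc6, which loads the MCM helicase, had signals of 0.417 and 0.303 without TNF, 0.438 and 0.203 after TNF, and 0.254 and 0.213 in neutrophils. It passed the rule with TNF at -1.11 (chromosome 11, 98782986 to 98783045, mm9) and was at -0.66 with normexp background correction. The 6 helicase subunits Mcm2, Mcm3, Mcm4, Mcm5, Mcm6 and Mcm7 differed by -0.39, -0.26, -0.43, -0.57, -0.45 and -0.55 after TNF, and none passed the rule. Mcm6 had signals of 22.7 and 18.0, then 19.0 and 13.9 after TNF, and 18.8 and 14.5 in neutrophils.

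Cdc45, which joins the helicase at the fork, was at -0.23 and -0.24 in macrophages and at 0.37 in neutrophils. Pcna, the sliding clamp, had signals of 79.2 and 85.7, then 57.5 and 51.7 after TNF, and 50.9 and 44.7 in neutrophils. Its differences, 0.11, -0.15 and -0.19, were the nearest to 0 of the group in macrophages with TNF. Over the 9 genes the medians were -0.33, -0.43 and -0.22, with 8, 9 and 7 below 0.

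Nucleotide supply genes were below 0 in macrophages in 4 of 4 cases with and without TNF, with medians of -0.64 and -0.26, and in 3 of 4 cases in neutrophils. Rrm1, the large subunit of ribonucleotide reductase, had signals of 7.68 and 5.41, then 7.15 and 4.36 after TNF, and 3.54 and 3.07 in neutrophils. Rrm2, its small subunit, had signals of 8.84 and 7.47, then 10.3 and 6.50, and 4.50 and 3.17 in neutrophils. With TNF they differed by -0.71 and -0.67, neither past the rule. Tk1, thymidine kinase, had signals of 4.61 and 3.81, then 4.67 and 3.81 after TNF, and 3.32 and 3.58 in neutrophils, with -0.27, -0.30 and 0.11.

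Among the CDK inhibitors of the set, Cdkn1a and Cdkn1b had more signal on the KO arrays, without passing the rule. Cdkn1a, p21, had signals of 3.59 and 5.12 without TNF, 4.95 and 6.27 after TNF, and 0.328 and 0.565 in neutrophils. Cdkn1b, p27, had signals of 6.82 and 9.40, then 5.31 and 8.94 after TNF, and 24.6 and 35.6 in neutrophils. Each KO array lay above its WT array, by 0.52, 0.34 and 0.78 for Cdkn1a and by 0.46, 0.75 and 0.54 for Cdkn1b, none past the rule, and scaling to the spike-in probes turns the macrophage values of both genes below 0. Cdkn2c, p18 of the INK4 family, had signals of 1.83 and 1.87, then 1.09 and 1.12 after TNF, and 1.34 and 0.896 in neutrophils. It did not differ in macrophages by more than 0.04 and stood at -0.59 in neutrophils.

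**Figure D3:**
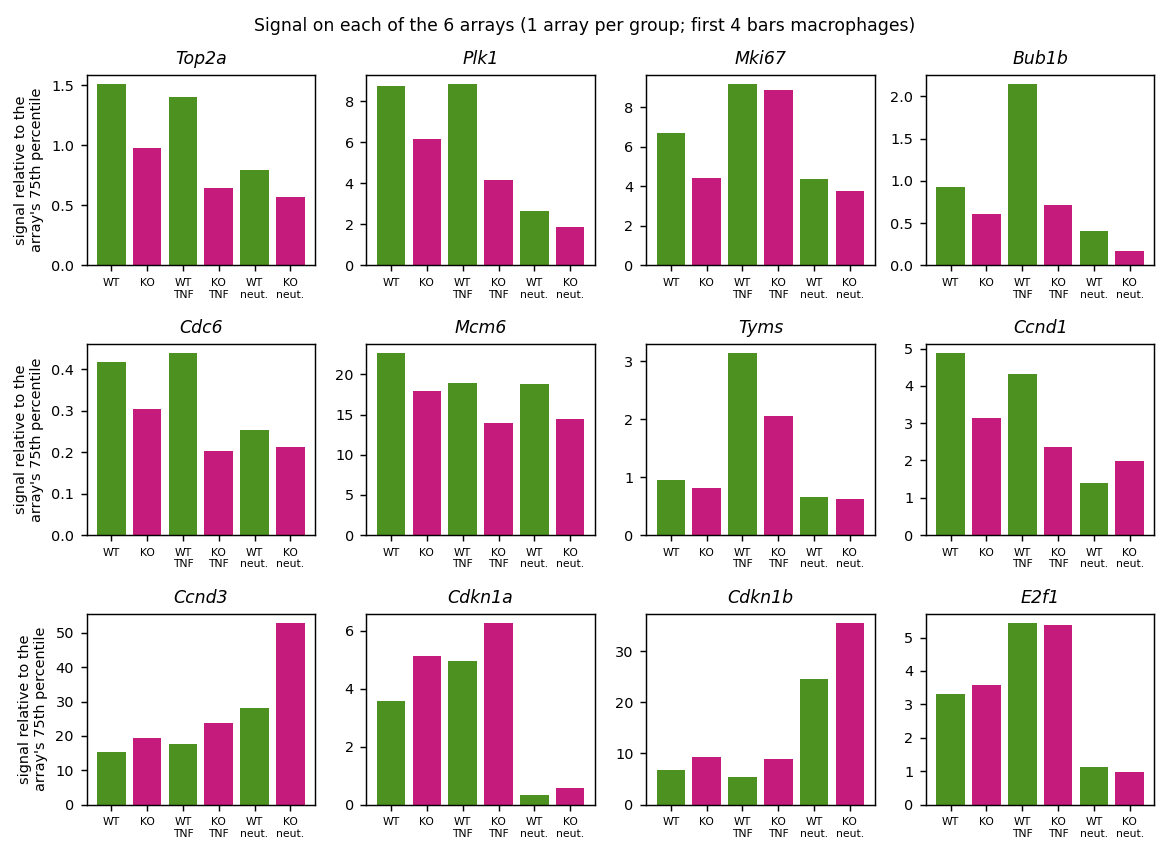
Signal relative to the array's 75th percentile for 12 members on each of the 6 arrays, 1 bar per array, with WT in green and KO in magenta. Bars are single arrays without error, and each panel has its own axis from 0. Top2a, Plk1 and Cdc6 have their lowest macrophage signal on the KO array with TNF (0.647, 4.16 and 0.203), Bub1b stands out on the WT array with TNF (2.15), and Ccnd1 lies below WT on both KO macrophage arrays and above it in neutrophils.

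The TNF array of each genotype was set against the untreated one. In WT macrophages, 2 of the 43 members were higher with TNF and 0 were lower, where 4.40% of 24645 genes were higher and 5.98% were lower, and 22 members were below 0, against 48.2%. Tyms, thymidylate synthase, had signals of 0.943 and 3.14 without and with TNF in WT and of 0.814 and 2.06 in KO macrophages. It rose by 1.74 in WT and by 1.34 in KO macrophages, and its neutrophil signals were 0.652 and 0.625. Bub1b rose by 1.22 in WT macrophages and was at 0.24 in KO macrophages. In KO macrophages, Tyms was the 1 member that was higher (4.43% of 24067 genes) and Cenpa, at -1.01, the 1 that was lower (3.71%). Cenpa was at -0.98 with quantile normalization and then did not pass.

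Below the 2-fold rule, the 2 genotypes differed in the bulk of the set. The median TNF difference of the members was -0.04 in WT and -0.36 in KO macrophages, with all genes at 0.02 and 0.03, and 33 members were below 0 in KO macrophages against 47.0% of all genes. The 20 mitotic members had medians of -0.01 and -0.43. The difference of the TNF differences, KO minus WT, was below 0 for 36 of the 43 members, against 53.2% of 21751 genes, with a median of -0.22 against -0.02. No member reached the rule of size in this difference, which 0.621% of all genes passed as lower and 1.49% as higher. It came closest for Bub1b at -0.98, followed by Aurkb at -0.79, while Mki67 lay on the other side at 0.54. Mki67 was higher with TNF by 0.457 in WT and by 0.997 in KO macrophages, the latter just short of the rule, and its other probe gave 0.40 and 0.97. E2f1 was at 0.72 and 0.58, and Cdkn2c at -0.75 and -0.74, so both stood alike in the genotypes. The 2 TNF differences and the KO-minus-WT differences share arrays, and culture time may differ between the arrays compared.

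**Figure D4:**
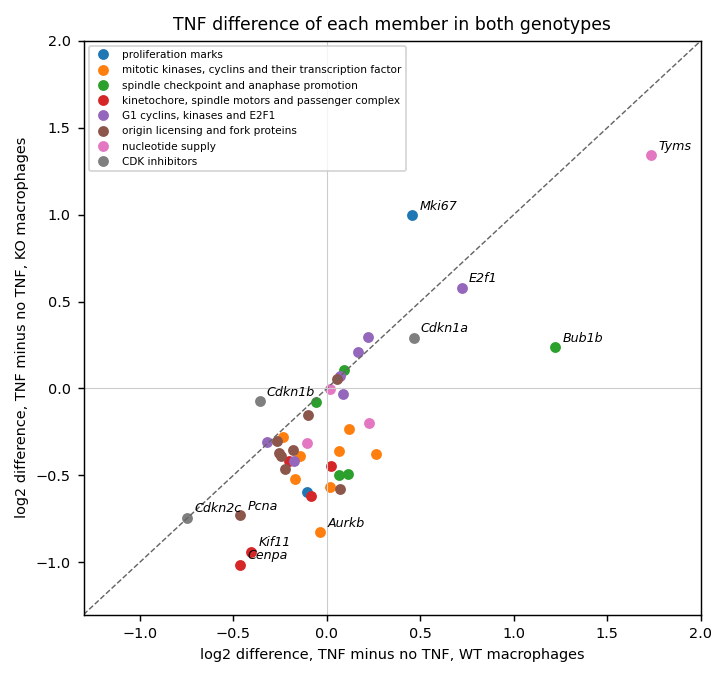
Log2 TNF difference of each of the 43 members in KO macrophages (vertical) against that in WT macrophages (horizontal), coloured by role, with 1 array per group and the dashed line at equal values. Below the line lie 36 members and above it 7, with Mki67 farthest above (0.46 in WT) and Bub1b farthest below (1.22 in WT and 0.24 in KO).

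WT neutrophils were set against WT macrophages without TNF, to describe where each member has its signal. Of the 43 members, 18 were lower on the neutrophil array and 2 were higher, where 18.8% of 25585 genes were lower and 25.9% were higher. The median was -0.81 against 0.14 for all genes, and 36 members were below 0, against 45.8%. Of the 20 mitotic members, 13 were lower, with a median of -1.11. Kif20a fell by 2.20, Cdk1 by 2.04 and Ccnb1 by 1.85. Of the 9 origin and fork genes, 0 passed the rule, and their median was -0.22, with Mcm2, Mcm5, Mcm7 and Cdc45 above 0 at 0.06, 0.38, 0.15 and 0.39. Scaling to the spike-in probes, which lowers all genes by 1.58 in this comparison, turns these values below 0, as it does that of Ccnd3 described next.

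D cyclins and inhibitors divided between the neutrophil and macrophage arrays, which also differed in markers of other cells. All 8 B-cell markers (median 6.625) and 6 of 7 erythroid markers (median 7.125) were higher on the WT neutrophil array. All 8 mesothelial and fibroblast markers were lower there (median -7.784). The part of these cells in the member values of this comparison was not tested. Ccnd2 had signals of 1.08 in WT macrophages and 6.05 in WT neutrophils and was higher in neutrophils by 2.49, while Ccnd1 was lower at -1.80 and Ccnd3 stood at 0.89. Cdkn1a was lower in neutrophils by the widest margin of the set, at -3.45, and Cdkn1b was higher at 1.85. Ccnd2 and Cdkn1b lost their call when scaled to the spike-in probes, at 0.91 and 0.27, still above 0. E2f1 (-1.56), Cdk4 (-1.14) and Rrm1 (-1.12) were also lower. Among the 36 members below 0 in neutrophils, 34 were also below 0 on the KO array of macrophages with TNF, and so were 5 of the 7 members above 0 in neutrophils. Of all 43 members, 39 were below 0 in that KO pair, so 34 of 36 lies near the share of the whole set. Such counts and correlations were not computed over all genes, so no link between the cell type and genotype differences is drawn. Across the 43 members, the cell type difference and the KO-minus-WT difference with TNF had a Pearson r of 0.40 and a Spearman rho of 0.48, given as a description, since all values come from arrays on the same slide.

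**Figure D5:**
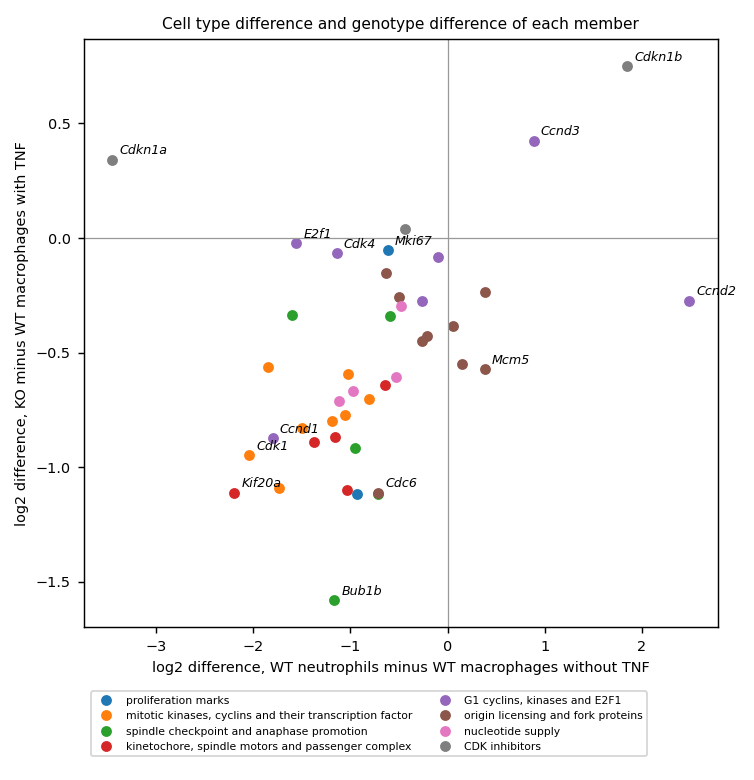
Log2 difference of KO minus WT macrophages with TNF (vertical) against that of WT neutrophils minus WT macrophages without TNF (horizontal) for the 43 members, coloured by role, with 1 array per group. Cdkn1b and Ccnd3 lie at upper right, Cdkn1a farthest left (-3.45), and Ccnd2 (2.49) lies to the right with a genotype difference of -0.27; scaling to the spike-in probes moves all points down and left.

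Genes of the same pathways outside the set were read from lists. Of 37 other mitosis genes measured in macrophages, 0 passed the rule without TNF and 37 were below 0, with a median of -0.43. With TNF, 7 were lower on the KO array, against 2.66% of all genes. In that pair 36 of 37 were below 0, against 43.8% of all genes, with a median of -0.64. The 7 were Ttk, Kif15, Kif23, Prc1, Spc24, Casc5 and Cdc25c. Kif15, a spindle kinesin, had signals of 0.198 and 0.131 without TNF and 0.157 and 0.0613 after TNF, and Prc1, which bundles spindle microtubules, had 4.49 and 2.35, then 4.42 and 1.82. They were lower on the KO array with TNF at -1.36 and -1.28. Ncapg, a condensin subunit, had a measured difference of -1.93 in this pair, but on the KO array its probe fell short of the mark for well above background, so its bound was -0.05 and it was not called. In neutrophils 23 of 34 were below 0, against 51.3% of all genes, with a median of -0.23 and 0 past the rule.

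Of 37 other replication genes, 30 were below 0 without TNF (median -0.20) and 31 with TNF (median -0.28), against 39.3% and 43.8% of all genes. Only Exo1, an exonuclease of DNA repair, was lower on the KO array with TNF, at -1.12. This was 1 of 37 genes and lies near the share of all genes lower there, 2.66%. Orc1, of the origin recognition complex, was at -0.96 and Rpa2, of the single-strand binding protein, at 0.81 in macrophages without TNF. In neutrophils, Dck, deoxycytidine kinase, was higher at 1.07 and Chek1, a checkpoint kinase, lower at -1.01, and 29 of 35 were below 0. Of all genes, 5.02% were higher, 4.74% were lower and 51.3% were below 0 in that pair.

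RB, E2F and DREAM regulators had medians of -0.03, -0.03 and -0.01 in the 3 pairs, with 9 of 18 below 0 in each. Lin52, a subunit of MuvB, was lower on the KO neutrophil array at -1.73, with signals of 36.2 and 10.9. It was 1 of 18 genes, where 4.74% of all genes were lower. With TNF, E2f8, a repressor of the E2F family, rose by 1.19 in WT and 1.29 in KO macrophages, and E2f2 fell by 1.95 in WT and 1.04 in KO macrophages. Between cell types, Lin52 was higher in WT neutrophils at 4.15. Among other CDK inhibitors and cyclins G, Cdkn1c, p57 of the CIP and KIP family, and Cdkn2b, p15 of the INK4 family, were lower on the KO array with TNF at -1.47 and -1.23, and Ccng2 was higher at 1.04. That list has 7 genes, and of all genes 2.66% were lower and 7.38% higher. Unlike Cdkn1a and Cdkn1b, Cdkn1c lay below its WT array in all 3 pairs. It was at -0.96 without TNF and -0.37 in neutrophils, fell by 1.13 with TNF in KO macrophages and was lower in WT neutrophils at -4.51. Cdkn2b rose by 1.37 with TNF in WT macrophages and was at 0.99 in KO macrophages. In the difference of the TNF differences, the pathway genes farthest below and above 0 were Kif15 at -0.77, Exo1 at -0.58, Ccng2 at 0.64 and E2f2 at 0.91, none past the rule.

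Over the 36 members with a window, those with TTTGAA had a median KO-minus-WT difference with TNF of -0.92 (13 genes), and those without it one of -0.34 (23 genes). Without TNF these medians were -0.45 and -0.28, and in neutrophils -0.42 and -0.22. For CCAAT the medians with TNF were -0.57 (27 genes) and -0.295 (9 genes). For an E2F core the medians with TNF were -0.56 (12 genes) and -0.50 (24 genes). All 13 genes with TTTGAA also hold CCAAT, and most are mitotic members, so motifs and role cannot be told apart here. Of the 13 genes with TTTGAA, the 5 shown above passed the rule and the other 8 did not, namely Mki67, Cdk1, Ccnb2, Aurka, Cdc20, Cenpa, Cdc45 and Mcm2. Cdc6 passed it with an E2F core alone.

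Markers of other cells moved with the genotype, and in bulk RNA fewer cells of a type and less RNA per cell cannot be told apart. The 8 mesothelial and fibroblast markers summed to a relative signal of 220.6 and 110.7 on the WT and KO arrays of macrophages without TNF, and to 200.4 and 78.9 with TNF. Col1a1 and Pdgfra, genes of fibroblasts, were lower on the KO arrays at -1.09 and -1.05 in untreated macrophages and at -1.48 and -1.55 after TNF, and 4 and 3 of the 8 markers passed the rule. Of the 8, 6 were below 0 in untreated macrophages, where Msln and Krt19 stood at 0.01 and 0.20, and 8 were below 0 after TNF. In neutrophils the same markers summed to 0.890 and 1.10, with 6 and 5 of the 8 not well above background.

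On the KO macrophage arrays, by contrast, sums were larger for mature neutrophil markers (164.3 and 440.8 without TNF, 229.4 and 492.4 with TNF), B-cell markers (5.21 and 18.6, then 3.50 and 13.4) and monocyte markers (33.5 and 87.1, then 40.2 and 139.1). Macrophage markers themselves summed to 1196.0 and 1399.7 without TNF and to 1127.2 and 1290.6 with TNF. Of these 11, 10 and 9 were above 0 in the 2 pairs, with medians of 0.27 and 0.46. Without TNF, 9 of 9 mature neutrophil markers were above 0 (median 1.13). With TNF, 6 were above 0 and 3 below (median 0.34), so a few bright markers carry that sum. All 7 B-cell and all 5 monocyte markers tested were above 0 in both pairs. Pax5 was not well above background on any macrophage array. Neutrophil granule precursor markers summed to less on the KO macrophage arrays (34.8 and 28.7 without TNF, 50.4 and 43.9 with TNF). Even so 6 of 8 tested were above 0 and 2 below in each pair, with Prtn3, Ltf and Lcn2 higher. On the neutrophil arrays, mature neutrophil markers summed to 2221 in WT and 2730 in KO, with 9 of 9 above 0, a median of 0.94, and Cxcr2 and Mxd1 higher at 1.63 and 1.53. Markers of neutrophil granule precursors summed to 210.6 and 261.9 there. Of the 9 tested, 7 were above 0 and 2 below (median 0.165), with Ctsg and Lcn2 higher. The sums in WT and KO were 717.5 and 257.2 for plasma cell markers, 596.9 and 383.0 for macrophage markers, 683.2 and 1668 for erythroid markers and 614.8 and 624.3 for B-cell markers. Tnfrsf17 and Sdc1, of plasma cells, fell by 3.02 and 2.28 there. The part of these cells in the differences of the members was not tested.

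All differences are relative to the bulk of genes on an array. After scaling to the 75th percentile, the 8 spike-in probes stood higher on the KO arrays by a mean of 0.52, 0.78 and 0.41 in the 3 pairs. Scaling to them would lower all genes by these amounts on the KO arrays, and the distance of the member median from the median of all genes would remain at -0.40, -0.63 and -0.24. Of all genes past the rule, 72.3%, 73.5% and 51.4% were higher on the KO array in the 3 pairs, and these shares were 19.9%, 10.8% and 17.6% with spike-in scaling and 60.0% with TNF after removal of the loess trend. The share was 58.0% for WT neutrophils against macrophages (10.9% with spike-in scaling and 43.5% with loess), 54.4% for TNF in KO macrophages (26.8% with spike-in scaling) and 70.7% for the difference of the TNF differences (28.8% with spike-in scaling and 60.0% with loess). Of 15 other probes of 11 members that were well above background on all arrays, 13, 13 and 12 had the sign of the brightest probe in the 3 pairs.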

How the data were processed

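Total RNA labelled with Cy3 was hybridised to 6 single-colour Agilent mouse arrays, 1 for each group. Per the file headers, the deposited intensity values are background-subtracted and detrended within each array by Agilent Feature Extraction 10.7.3.1, the version in the submitters' processing notes, and were not normalized between arrays. The arrays share 1 slide and 1 scan per the file headers, which leaves no batch to test. Arrays have no counts, and their number limits the precision.

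The deposited intensity was taken to log2, gene spots marked as outliers (101 to 121 per array) were left out, spots of a probe were averaged and the 75th percentile over 55681 probes was subtracted. The brightest probe stood for a gene. Where a dimmer array was not well above background, the 2-fold rule was applied to a bound. The bound used the larger of the gene's own signal and the lowest signal well above background on that array, so it can equal the measured difference. Medians and counts below or above 0 used the measured differences. All comparisons used the whole table, and members were only described. The members and lists were chosen with earlier results of these data known. All 44 members are named, with values on every array for those past the rule in a KO-minus-WT comparison, the brightest of each role, and those with the largest and smallest KO-minus-WT differences of each role in macrophages with TNF. Of other pathway lists, the 2 largest differences in each direction per comparison are named, ranked by the bound where one was used, and other names were chosen after their values were seen. Tools were Python 3.11.15, numpy 2.4.6, pandas 2.3.3, statsmodels 0.14.6, matplotlib 3.10.9, R 4.3.3 and limma 3.58.1. The normexp alternative (offset 50) was made with limma, and the quantile alternative with numpy and pandas.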

Additional observations from a re-analysis of the deposited data

How the results depend on the processing

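All results were recomputed with quantile normalization, the median of probes well above background on all 6 arrays as the scale, scaling to the spike-in probes, normexp background correction, the median of a gene's probes in place of the brightest, a filter for signal well above background on all 6 arrays, no filter on dim probes, and removal of a trend on mean signal by loess. No median difference of the members changed sign under these 8 alternatives. Scaling to the spike-in probes changed most values. It lowered the median of all genes by 0.52, 0.78 and 0.41 on the KO arrays of macrophages without and with TNF and of neutrophils. The member median was then -0.86 without TNF with 12 members lower, -1.35 with TNF with 34 lower, and 3 were lower in neutrophils. In KO macrophages 5 members were then lower with TNF, WT neutrophils against macrophages had a median of -2.39 with 40 lower and 0 higher, the difference of the TNF differences had a median of -0.47 with 2 lower, and 0 members were higher in all 3 pairs. With normexp correction 4 members were lower on the KO array with TNF, where Top2a, Kif11 and Cdc6 lost the call, 0 in neutrophils, and 0 with TNF in KO macrophages. Quantile normalization also left 0 lower with TNF in KO macrophages. With the median over all probes, 1 member was higher on the KO array in neutrophils, 2 were lower with TNF in KO macrophages and 1 was lower in the difference of the TNF differences. Below 0 in every pair were between 27 and 39 members. The cause of these changes was not tested. No paired analysis was possible because the groups compared share fewer than 2 replicate numbers. A fit of genotype and condition over the 3 pairs was left out, since the pairs may share mice and its error would be the difference between conditions. Dim probes such as those of Kif11, Aurkb and Cdc6 limit the size of a difference, since background correction moves them.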

Other observations

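Genes that p53 is known to induce had medians of 0.12, 0.13 and 0.16, KO minus WT, for untreated macrophages, TNF-treated macrophages and neutrophils, and 4 of 12 were below 0 in each pair, against 39.3%, 43.8% and 51.3% of all genes. Scaling to the spike-in probes, which lowers all genes by 0.52, 0.78 and 0.41 in these pairs, turns the 3 medians below 0. None was higher by the 2-fold rule, and Perp was lower on the KO neutrophil array, where it was not well above background, with a bound of -1.16. Btg2 was at 0.62 without TNF and Gadd45a at 0.84 in neutrophils. With TNF, Sesn1 fell by 1.93 in WT and 1.99 in KO macrophages, and Gadd45a rose by 1.29 in KO macrophages. Between cell types, Btg2 was higher in WT neutrophils at 4.27 and Phlda3 lower at -5.25.

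Replication-dependent histone genes, whose main transcripts lack a poly(A) tail, had medians of -0.10, -0.29 and 0.06 over 11 genes. Hist1h2ac was higher on the KO array with TNF, with a bound of 1.35 because it was not well above background on the WT array, and 8 of 11 were below 0 there. E2f2 had the difference of TNF differences nearest to the rule among the pathway genes above 0, at 0.91, with signals of 2.57 and 0.664 in WT and 2.63 and 1.28 in KO macrophages without and with TNF.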
